A study of Mus musculus with 9 samples.

Results

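The 10 genes described here are circadian clock repressors and output factors: Per1, Per2, Per3, Cry1, Cry2, Nr1d1, Nr1d2, Dbp, Tef and Bhlhe40. They were taken by name, with symbols matched to the Ensembl identifiers of a table of 55416 genes, and all 10 were found and tested. Their expression was measured by bulk RNA-Seq in 9 libraries of cultured mouse AdvSca1-SM cells, which are resident progenitors of the arterial adventitia that derive from mature smooth muscle cells. There were 3 conditions with 3 libraries each. The Stem libraries came from cells kept in stem cell medium, an alpha-MEM with 10% serum, 1 ng/mL basic fibroblast growth factor and 5 ng/mL epidermal growth factor. The TGF-β libraries came from cells given 5 ng/mL TGF-β1 for 72 hours, and the Both libraries from cells given the same TGF-β1 together with 50 μM PFI-3, an inhibitor of the bromodomain of the chromatin remodeler Brg1. DMSO, the vehicle, was present at 0.1% in every culture.

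The cultures carried the SM22α-Cre and ROSA26-YFP alleles, in which a smooth muscle promoter drives Cre, and were sorted for YFP and Sca1 from arteries pooled from 8-week-old animals. Stimulated cells were growth arrested for 24 hours and then held in DMEM with 0.1% serum. For this DMEM the study's methods list neither of the growth factors of the stem cell medium. Whether the Stem cells were growth arrested too is not clear from the sources used here. Medium, serum, growth factors and TGF-β1, and growth arrest if Stem cells had none, changed together between Stem and TGF-β and cannot be told apart. TGF-β and Both differed, as far as the labels say, in PFI-3 alone. The study calls the replicates of a condition independent. Whether they came from separate isolations of cells is not given in the sources used here, and p-values measure the spread between these libraries. Every library stands for 1 harvest time, and a change in the mean level of a rhythmic gene cannot be told apart from a change in its phase.

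The mammalian clock is a transcriptional feedback loop. BMAL1, encoded by Arntl, and CLOCK bind E-boxes and activate the Per and Cry genes, whose products return to the nucleus and repress them. The same activators drive Nr1d1 and Nr1d2, which encode the REV-ERB repressors of Arntl, as well as Dbp, an output factor that acts at D-boxes together with Tef, and Bhlhe40, which encodes DEC1, a repressor that competes for E-boxes. Fibroblasts and vascular cells keep this loop in culture, where serum and other stimuli can shift its phase.

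Promoters were searched for the elements of this loop, since the members are textbook examples of genes that carry them. RefSeq start sites on GRCm38.p6 gave windows of 250 bases before to 50 bases after the start for 8 of the 10 genes, with a second window for Per1 and for Tef. The E-box CACGTG was found in 3 of these 8 genes, Per1, Cry1 and Tef. Counted by window, it was in 4 of the 10 member windows and in 7.15% of all 32851 windows of the mouse table. The related element CACGTT, searched on both strands like every motif here, was found in Cry1, Cry2 and Nr1d1 and in 4.68% of all windows. The D-box, as TTATGTAA or TTACGTAA, was found in Per3 and in 1.06% of all windows. TAGGTCA, the letters of the ROR element, and the cAMP response element TGACGTCA were in no member window, against 2.61% and 1.79% of all windows.

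The 4 upstream stretches that follow are given 5′ to 3′ on the strand of the gene, because they hold the elements of the 2 Cry genes, which moved in opposite directions below, of Per1, and of Per3, the only member window here with a D-box. They span chr10:85185055-85185304 for Cry1 (minus strand), chr2:92434070-92434319 for Cry2 (minus strand), chr11:69098699-69098948 for Per1 (plus strand) and chr4:151044666-151044915 for Per3 (minus strand). Capitals mark the motif matches, so that AACGTG is CACGTT read on the other strand.
Cry1: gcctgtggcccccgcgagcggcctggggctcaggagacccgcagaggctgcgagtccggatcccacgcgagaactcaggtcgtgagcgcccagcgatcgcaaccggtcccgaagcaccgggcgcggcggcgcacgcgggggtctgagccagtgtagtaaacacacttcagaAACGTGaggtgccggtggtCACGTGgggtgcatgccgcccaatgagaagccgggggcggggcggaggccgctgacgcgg
Cry2: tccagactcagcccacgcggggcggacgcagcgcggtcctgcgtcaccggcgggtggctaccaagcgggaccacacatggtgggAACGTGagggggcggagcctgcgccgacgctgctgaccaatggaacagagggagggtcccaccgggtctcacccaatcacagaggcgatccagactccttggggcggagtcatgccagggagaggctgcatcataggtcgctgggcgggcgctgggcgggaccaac
Per1: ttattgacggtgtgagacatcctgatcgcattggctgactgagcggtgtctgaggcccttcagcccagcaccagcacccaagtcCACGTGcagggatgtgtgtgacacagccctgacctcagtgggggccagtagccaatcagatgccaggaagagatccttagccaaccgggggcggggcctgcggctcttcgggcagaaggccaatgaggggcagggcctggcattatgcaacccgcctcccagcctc
Per3: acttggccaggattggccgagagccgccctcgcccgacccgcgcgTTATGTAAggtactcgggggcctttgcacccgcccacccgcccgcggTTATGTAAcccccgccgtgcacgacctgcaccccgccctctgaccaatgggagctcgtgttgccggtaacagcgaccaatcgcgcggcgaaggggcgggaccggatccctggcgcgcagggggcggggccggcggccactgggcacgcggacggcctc
Cry1 held its E-box 60 bases and its CACGTT match 79 bases before the start, and Cry2 held a CACGTT match 166 bases before it. The E-box of Per1 began 166 bases before the start, and Per3 held TTATGTAA at 205 and again at 158 bases. A match describes these letters in these windows and is not a measured binding site.

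Total counts ranged from 35686291 to 47741128 per library, and levels are given as normalized counts, that is, counts scaled to the mean library. The smallest count of any member in any library was 111, and the within-group coefficient of variation of the members ran from 0.303% to 17.3%. The extraction text of the labels names hepatic tissue, yet the hepatocyte markers Alb, Apoa1 and Ttr had at most 2 counts in any library. Summed over Ly6a, Cd34, Pdgfra and Scara5, markers of AdvSca1-SM cells lay at 50475 to 58767 normalized counts for Stem, 6361 to 6638 for TGF-β and 6784 to 7423 for Both, while the myofibroblast markers Acta2, Postn and Col1a1 summed to 84965 to 97546, 714385 to 764232 and 505722 to 537106. Pdgfra made up most of the AdvSca1-SM sum, with means of 45657 for Stem, 5438 for TGF-β and 6268 for Both. Col1a1 made up most of the myofibroblast sum. From TGF-β to Both, Pdgfra had a log2 fold change of 0.20 and Scara5 of −1.18 (adjusted p = 0.0485 and 0.0383 in edgeR's test). Ly6a and Cd34 had −0.36 and −0.62 (adjusted p = 0.0859 and 0.234). Acta2, Postn and Col1a1 had −0.59, −1.74 and −0.47, each with an adjusted p below 0.05. Smooth muscle markers Myh11 and Cnn1 summed to 509 to 784, 397 to 475 and 250 to 299. Endothelial markers (Pecam1, Cdh5, Vwf) did not exceed 33.5 and leukocyte markers (Ptprc, Adgre1, Cd68) did not exceed 19.3 in any library, with Adgre1 at 0 throughout. The part of these marker shifts in the results below was not tested, and in bulk RNA fewer cells of a type and less RNA per cell cannot be told apart.

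Between Stem and TGF-β, the members moved in both directions. A gene is said here to have risen or fallen where the adjusted p of edgeR's quasi-likelihood test was below 0.05, and to have passed the full threshold where it also changed at least 2-fold. By the first criterion, 3 members rose (Bhlhe40, Cry1, Dbp), 5 fell (Per1, Per2, Cry2, Nr1d1, Nr1d2) and 2 did not pass (Per3, Tef). That is 8 of 10, where 75.0% of the 14879 tested genes passed (37.3% higher and 37.7% lower in TGF-β), so the share of members is close to the background. The same 8 members did not overlap between the 2 groups, against 76.8% of all genes. Bhlhe40 and Cry2 alone passed the full threshold, 2 of 10 against 25.1% of all genes (10.6% higher, 14.5% lower). The median log2 fold change of the members was −0.13, and their median absolute value was 0.45, against 0.49 over all tested genes.

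Bhlhe40 (ENSMUSG00000030103) showed the largest change among the members. Its normalized counts were 1174, 1144 and 1126 in the Stem group, 6854, 7134 and 6916 in the TGF-β group and 6514, 6698 and 6762 in the Both group. The Stem libraries lay far below the other 6, and the TGF-β and Both ranges did not overlap, although they came close. From Stem to TGF-β it rose 6.07-fold (log2 fold change 2.60 ± 0.0384 SE, adjusted p = 1.40e-13).

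**Figure D1:**
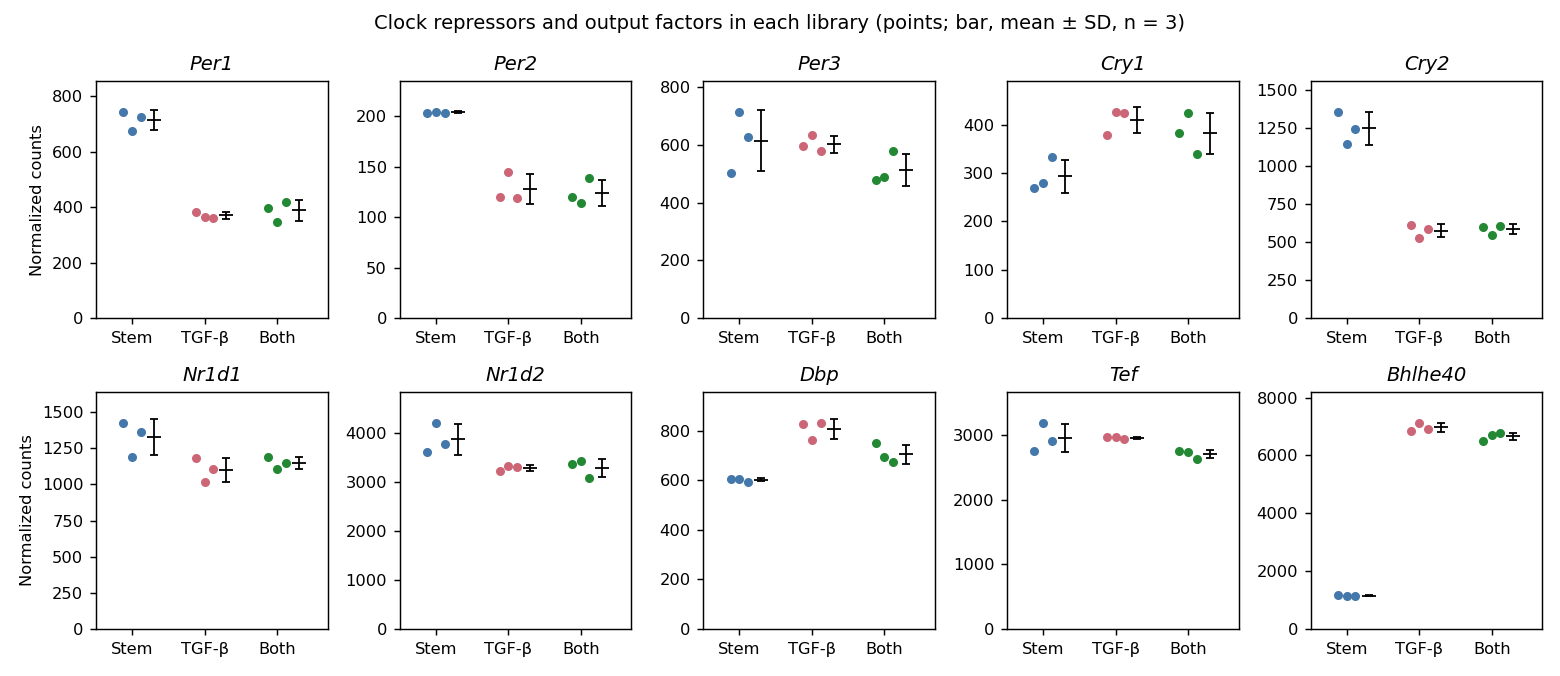
Normalized counts of the 10 members in each library, on linear axes that start at 0; points are the 9 libraries, and bars give the mean ± SD of the 3 libraries of a group. Bhlhe40 sits between 1126 and 1174 in Stem and between 6514 and 7134 in the other groups, and Cry2 falls from 1143 to 1355 in Stem to between 529 and 610 in TGF-β.

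The Per genes encode the PERIOD proteins, which carry the CRY proteins into the repressor complex. Per1 (ENSMUSG00000020893) had 744, 674 and 727 normalized counts for Stem, 384, 366 and 361 for TGF-β and 399, 348 and 420 for Both. Every Stem library was above every library of the other groups, which overlapped each other. Per1 fell by 0.95 on the log2 scale from Stem to TGF-β (SE 0.0761, 95% interval −1.12 to −0.78, adjusted p = 2.29e-07), just short of the 2-fold minimum, and with libraries scaled by total counts alone it passed that minimum at −1.07. Per2 (ENSMUSG00000055866) was the lowest member by count, with 203, 204 and 203 in the Stem group, 120, 145 and 119 in the TGF-β group and 120, 114 and 139 in the Both group. It too was higher in every Stem library, and it fell by 0.67 (SE 0.111, adjusted p = 1.53e-04). Per3 (ENSMUSG00000028957) had 501, 713 and 627 for Stem, 595, 633 and 577 for TGF-β and 477, 487 and 578 for Both. Its groups overlapped, with the widest spread in Stem, and its log2 difference from Stem to TGF-β was −0.03 (95% interval −0.28 to 0.22, adjusted p = 0.828).

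Cryptochromes are the partners of PER and the stronger repressors of BMAL1 and CLOCK. The pair moved apart. Cry1 (ENSMUSG00000020038) had 268, 279 and 332 normalized counts in the Stem group, 379, 426 and 423 in the TGF-β group and 383, 424 and 339 in the Both group. Cry2 (ENSMUSG00000068742) had 1355, 1143 and 1243 for Stem, 610, 529 and 589 for TGF-β and 601, 547 and 609 for Both. For both genes, Stem did not overlap the other groups, below them for Cry1 and above them for Cry2. From Stem to TGF-β, Cry1 rose by a log2 fold change of 0.48 (SE 0.105, adjusted p = 0.00118). Cry2 fell by 1.11 (SE 0.0758, adjusted p = 4.88e-08).

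The ratio of Cry1 to Cry2 within a library needs no scaling between libraries; it was computed after these values had been seen and is given with no test. The log2 ratios were −2.34, −2.03 and −1.90 for the Stem libraries, −0.69, −0.31 and −0.48 for TGF-β, and −0.65, −0.37 and −0.85 for Both. The counts are not divided by transcript length, so only shifts between libraries are read from it: every Stem library was below every other library, and TGF-β and Both overlapped. Their means were −2.09 ± 0.223 for Stem, −0.49 ± 0.187 for TGF-β and −0.62 ± 0.242 for Both (SD, n = 3), a shift of 1.60 from Stem to TGF-β that stayed between 1.48 and 1.70 when any 1 library was left out.

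Nr1d1 and Nr1d2 encode REV-ERBα and REV-ERBβ, nuclear receptors that bind heme and repress Arntl. Nr1d1 (ENSMUSG00000020889) had 1428, 1191 and 1365 normalized counts in the Stem group, 1182, 1017 and 1109 in the TGF-β group and 1191, 1109 and 1148 in the Both group. Nr1d2 (ENSMUSG00000021775) had 3609, 4204 and 3775 for Stem, 3215, 3316 and 3310 for TGF-β and 3357, 3421 and 3079 for Both. For Nr1d1, the lowest Stem library was only a little above the highest TGF-β library (1191 against 1182) and level with the highest Both library. For Nr1d2 the lowest Stem library was more clearly above the highest TGF-β library (3609 against 3316). From Stem to TGF-β, Nr1d1 fell by 0.27 (SE 0.0723, adjusted p = 0.00494) and Nr1d2 by 0.24 (SE 0.0572, adjusted p = 0.00259). In the GRCm38 annotation, 263 exonic bases of Nr1d1, 8.55% of the gene, overlap the thyroid hormone receptor gene Thra on the opposite strand, and Thra itself fell by 1.61 (3262 ± 249 to 1071 ± 21.2 normalized counts, SD, n = 3). The study's methods name a stranded library kit. Whether the counting used strand is not given in the sources used here, so how reads of that stretch were counted is not known.

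Dbp and Tef encode PAR basic leucine zipper factors, which activate genes through D-boxes, the Per genes among them. Dbp (ENSMUSG00000059824) had 607, 607 and 595 normalized counts in the Stem group, 827, 762 and 833 in the TGF-β group and 749, 694 and 676 in the Both group. All 3 groups were separate, with Both between the others. Dbp rose by a log2 fold change of 0.42 from Stem to TGF-β (SE 0.0589, adjusted p = 3.70e-05). It shares 539 exonic bases, 18% of the gene, with Sphk2 on the opposite strand, which fell by 0.23 over the same contrast. Tef (ENSMUSG00000022389) had 2762, 3199 and 2918 for Stem, 2973, 2969 and 2949 for TGF-β and 2767, 2739 and 2637 for Both. Its TGF-β libraries lay inside the Stem range, and the log2 difference was 0.00 (95% interval −0.11 to 0.11, adjusted p = 0.971). Tef is the member whose sign followed the scaling: with total counts alone, which move the median of all genes to −0.12 in this contrast, it came to −0.12 as well (adjusted p = 0.0252). The opposite-strand neighbors that overlap Cry2, Tef and Bhlhe40 by 295, 193 and 118 exonic bases were at or near 0 counts.

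PFI-3 was examined by setting Both against TGF-β. No member passed the adjusted p of edgeR's test, 0 of 10, where 8.92% of all tested genes did, and none passed the full threshold, which 0.632% of genes passed. At an unadjusted p below 0.05 there were 2 of 10 members, Dbp and Tef, against 24.1% of all genes, and DESeq2 gave 0 at its adjusted p. The members' log2 fold changes ran from −0.23 for Per3 to 0.07 for Per1, with a median of −0.05 and a median absolute value of 0.07, against 0.11 over all genes. Bhlhe40 had a log2 difference of −0.07 (95% interval −0.14 to 0.01), Cry2 of 0.03 (−0.15 to 0.20), Cry1 of −0.10 (−0.32 to 0.12), Per1 of 0.07 (−0.10 to 0.25) and Per2 of −0.04 (−0.29 to 0.21). For Nr1d1 it was 0.06 (−0.10 to 0.22), for Nr1d2 0.00 (−0.12 to 0.13) and for Per3 −0.23 (−0.47 to 0.02). The intervals leave out a 2-fold change in either direction for every member. Their outermost bounds were −0.47 for Per3 and 0.25 for Per1, and changes inside an interval cannot be left out.

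Dbp and Tef came closest to the threshold. Every Both library was below every TGF-β library for each of them, as it was for Bhlhe40. Such separation, in 3 of the 10 members, was found in 32.7% of all tested genes. Dbp was lower in Both by 0.19 on the log2 scale (95% interval −0.32 to −0.07, adjusted p = 0.0606) and Tef by 0.13 (−0.24 to −0.02, adjusted p = 0.142). These adjusted p depended on which libraries set the spread: without Stem replicate 2, a library outside the comparison, they were 0.0433 and 0.0328, and over all alternatives they ran from 0.0338 to 0.204 for Dbp and from 0.0229 to 0.363 for Tef.

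**Figure D2:**
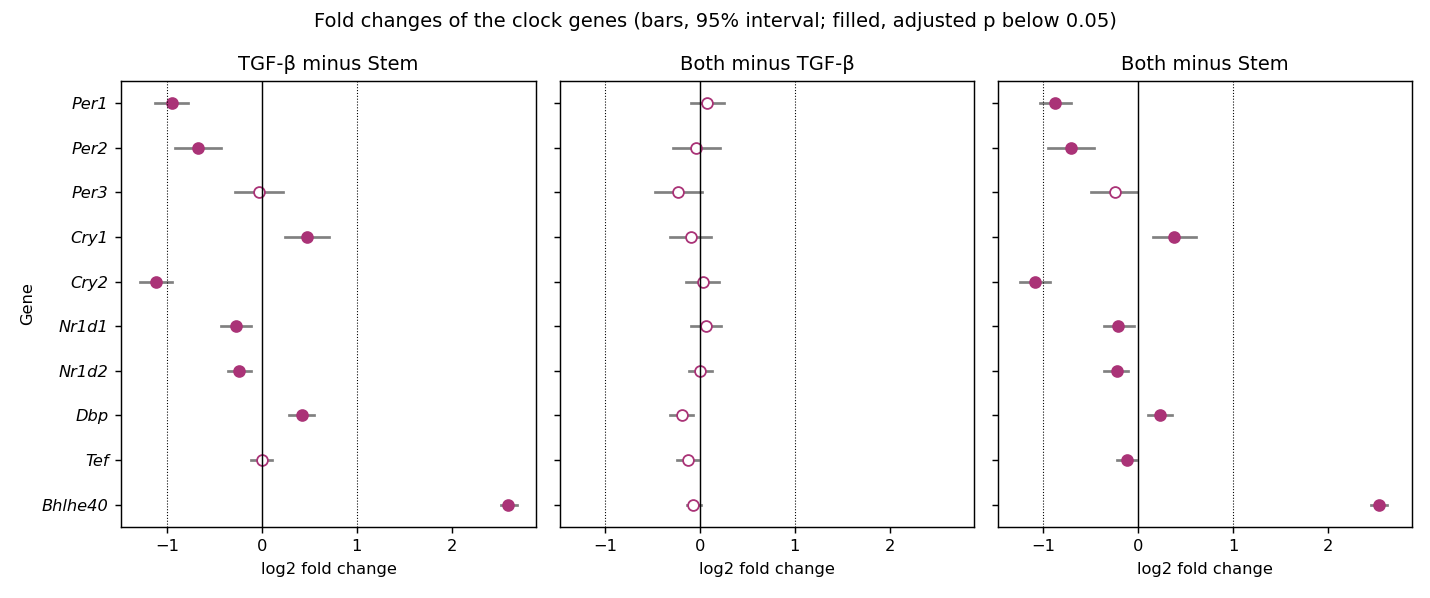
Log2 fold changes of the 10 members for TGF-β minus Stem, Both minus TGF-β and Both minus Stem; points are edgeR estimates, filled where the adjusted p was below 0.05, and bars are 95% intervals. Bhlhe40 at 2.60 and Cry2 at −1.11 stand apart from Stem to TGF-β, and all members lie between −0.23 and 0.07 from TGF-β to Both.

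Set against Stem, the cells that had received both agents are given side by side with the values above, since both comparisons use the same Stem libraries. The same 2 genes, Bhlhe40 (5.80-fold higher) and Cry2 (log2 fold change −1.09), passed the full threshold, which 22.8% of all genes did (9.55% higher, 13.2% lower). In all, 9 members had an adjusted p below 0.05 (3 higher, 6 lower), against 73.3% of all genes (36.6% in each direction), and 7 members did not overlap between these groups, against 74.7%. Per1 was lower by 0.88 and Per2 by 0.71, and Cry1 was higher by 0.38 and Dbp by 0.23. With total counts Dbp came to 0.12 and lost its call (adjusted p = 0.0998). The call of Nr1d1 (−0.21, adjusted p = 0.0201) was lost without Stem replicate 1 (0.0855), Stem replicate 3 (0.0722), Both replicate 2 (0.0740) or Both replicate 3 (0.0538), and that of Tef (−0.12, adjusted p = 0.0391) was lost in 11 of 16 alternatives, among them each left-out library except Stem replicate 1. Per3 had −0.25 (adjusted p = 0.0612), which came to 0.00268 without Stem replicate 1, 0.0265 without Both replicate 3, 0.00884 with total counts (−0.36) and 0.00859 with no filter.

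Levels were compared between genes per kilobase of the longest annotated transcript, and the order depended on that length. In Stem the order was Nr1d2 at 828 ± 65.9 normalized counts per kilobase (SD, n = 3), Tef at 672 ± 50.3, Nr1d1 at 488 ± 45.1, Bhlhe40 at 369 ± 7.68, Dbp at 328 ± 3.86, Cry2 at 314 ± 26.6, Per1 at 153 ± 7.88, Per3 at 102 ± 17.7, Cry1 at 96.9 ± 11.3 and Per2 at 34.9 ± 0.106. Among neighbors in this order, Dbp and Cry2, and Per3 and Cry1, did not differ beyond their spread (mean ± SD). The highest level was 23.7 times the lowest. In TGF-β, Bhlhe40 came first at 2238 ± 47.1, ahead of Nr1d2 at 703 ± 12.2 and Tef at 673 ± 3.00, and the Cry genes were within their spread, Cry2 at 145 ± 10.5 and Cry1 at 135 ± 8.71. With the median transcript length, which counts short annotated fragments, Tef came first in TGF-β (5236 ± 23.3) and Bhlhe40 next (4501 ± 94.7), and Cry1 (897 ± 57.8) stood above Cry2 (272 ± 19.6). Per2 was last in TGF-β by either length, at 21.9 ± 2.53 by the longest transcript, where Bhlhe40 was 102 times as high. In Both, Bhlhe40 at 2139 ± 41.3 and Per2 at 21.3 ± 2.18 marked the ends of the order by the longest transcript, while by the median length Tef (4795 ± 121) was again above Bhlhe40 (4301 ± 83.1). By the longest transcript Nr1d1 (422 ± 15.0) stood just above Dbp (384 ± 20.8), the reverse of TGF-β, where these neighbors (405 ± 30.3 and 439 ± 21.5) were within their spread. Cry2 and Cry1 (147 ± 8.54 and 126 ± 14.2), and Per3 and Per1 (85.6 ± 9.24 and 83.3 ± 7.91), were also within it in Both by this length. Together the members took 0.0330% to 0.0334% of all counts in Stem, 0.0403% to 0.0408% in TGF-β and 0.0391% to 0.0394% in Both. Bhlhe40 weighed heavily in this sum. It held 1121 of the 12084 member counts in Stem replicate 1, 6352 of 15881 in TGF-β replicate 1 and 7235 of 18390 in Both replicate 1. The higher share is therefore not a joint rise of the members, of which 5 fell from Stem to TGF-β.

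**Figure D3:**
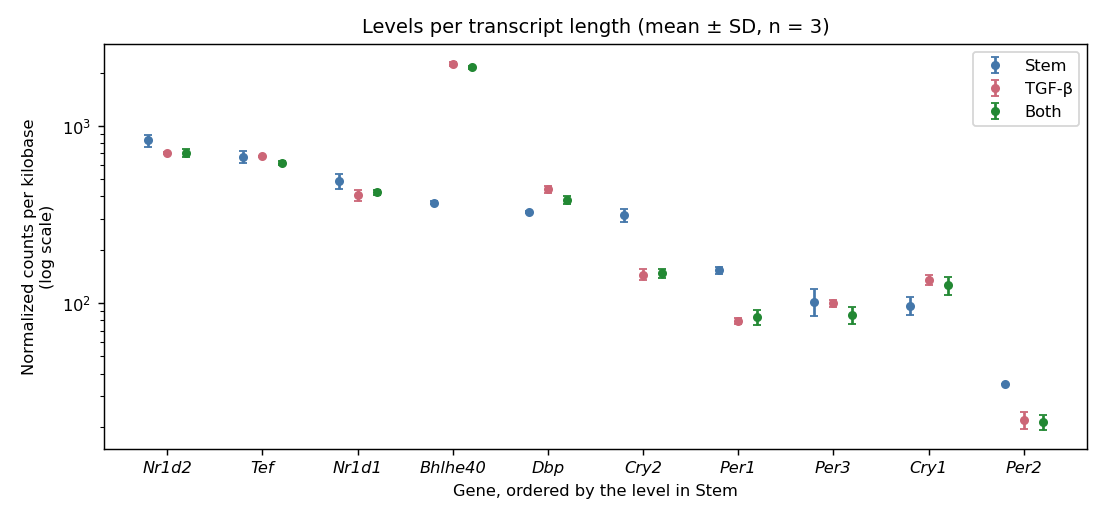
Normalized counts per kilobase of the longest transcript for each member on a log scale, ordered by the level in Stem; points are means and bars the SD of 3 libraries. Bhlhe40 moves from the fourth place in Stem (369) to the top in TGF-β (2238) and Both (2139) by this length, though not by the median transcript length, and Per2 is lowest in every group.

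The activators on the other side of the loop were described next. Arntl, which encodes BMAL1, had 481, 365 and 401 normalized counts in the Stem group, 1025, 927 and 979 in the TGF-β group and 867, 785 and 834 in the Both group. No groups overlapped, and Arntl rose by 1.23 from Stem to TGF-β (adjusted p = 7.33e-08), past the full threshold. From TGF-β to Both it was lower by 0.24 (adjusted p = 0.0957, from 0.0127 to 0.257 over the alternatives, with 0.0235 without Stem replicate 1 and 0.0316 without Stem replicate 2). Arntl2, its paralog, rose by 0.77 (adjusted p = 0.00102), and Clock, the partner of BMAL1, by 0.25 (adjusted p = 1.79e-05). Npas2, which can stand in for CLOCK, had a log2 difference of −0.10 (adjusted p = 0.481) from Stem to TGF-β. Rora and Rorb encode ROR receptors, which activate Arntl at the sites that REV-ERB proteins bind, and both fell: Rora by 0.87 (4441 to 2438 normalized counts) and Rorb by 1.41 (36.3 to 13.6). Npas2 had 268, 316 and 299 normalized counts in TGF-β and 403, 394 and 420 in Both. It rose by 0.46 (adjusted p = 0.0406), but that call was lost when any TGF-β or Both library was left out, and without Stem replicate 3 (0.0637), with adjusted p of up to 0.145.

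Dbp, a target of BMAL1 and CLOCK, was set against Arntl, a target of the REV-ERB proteins, as a ratio within each library, with no test. On the log2 scale it was 0.34, 0.73 and 0.57 for Stem, −0.31, −0.28 and −0.23 for TGF-β and −0.21, −0.18 and −0.30 for Both. Every Stem library was above all the others, while TGF-β and Both overlapped. The mean fell by 0.82 from Stem to TGF-β and differed by 0.05 between TGF-β and Both.

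**Figure D4:**
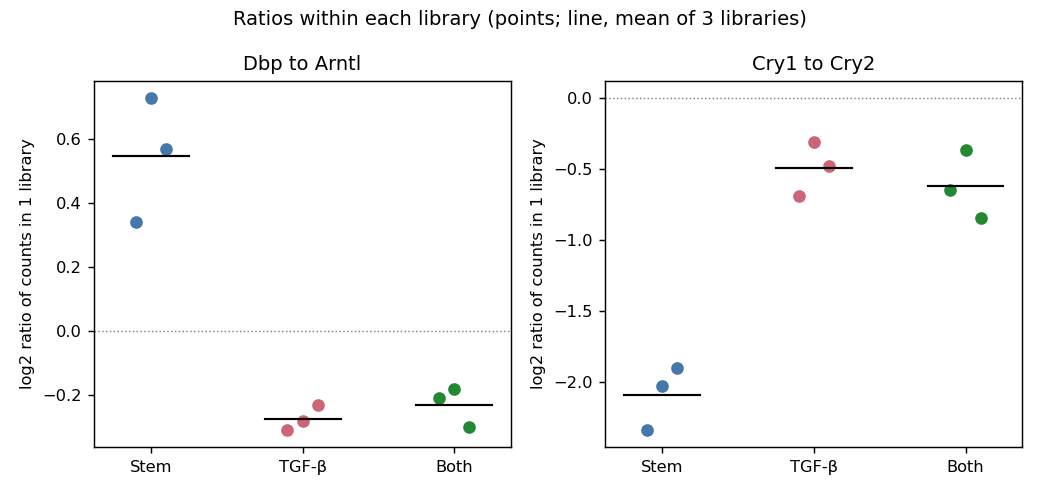
Log2 ratios of counts within each library for Dbp to Arntl and for Cry1 to Cry2; points are libraries and lines the means of 3. Dbp to Arntl lies between 0.34 and 0.73 in Stem and between −0.31 and −0.18 in the other groups, and Cry1 to Cry2 lies between −2.34 and −1.90 in Stem and between −0.85 and −0.31 elsewhere.

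Of the 4 further repressors and D-box factors, 3 passed the full threshold from Stem to TGF-β, against 25.1% of all tested genes. Bhlhe41, the paralog of Bhlhe40 that encodes DEC2, had 407, 450 and 406 normalized counts in the Stem group, 1766, 1601 and 1694 in the TGF-β group and 1497, 1401 and 1411 in the Both group. Its log2 rise was 2.00 (adjusted p = 2.66e-11), smaller than that of Bhlhe40 but in the same direction. Ciart, which encodes the repressor CHRONO, rose by 2.20 from 59.7, 36.9 and 34.6 to 207, 191 and 209 (adjusted p = 1.57e-07). Nfil3, a repressor at D-boxes, fell by 0.33. Hlf, the third PAR factor beside Dbp and Tef, went the other way from Dbp: it had 280, 98.9 and 172 for Stem, 3.24, 1.01 and 2.93 for TGF-β and 10.8, 9.87 and 13.2 for Both. The TGF-β libraries held 7 counts in all and the Stem libraries 517, a ratio of 77.5 after scaling, with a 95% counting interval of 37.3 to 194 that does not cover the spread between libraries.

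**Figure D5:**
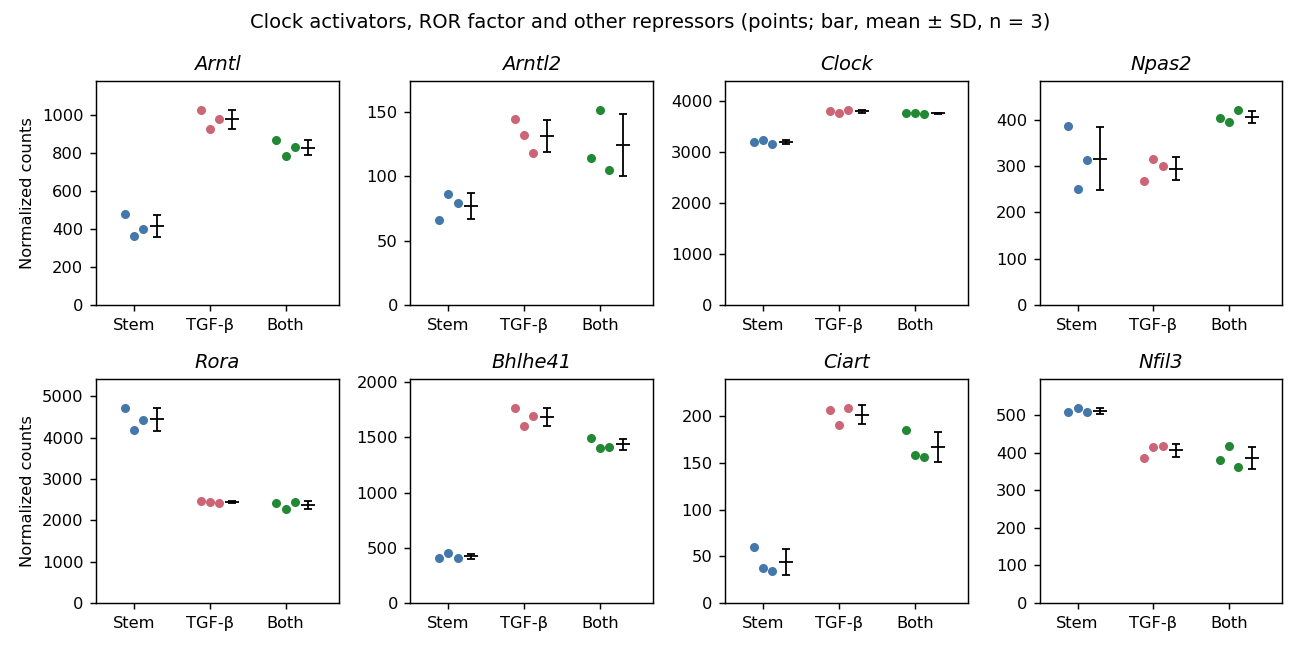
Normalized counts of clock activators, the ROR factor Rora and other repressors in each library, on linear axes that start at 0; points are libraries and bars the mean ± SD of 3. Arntl, Bhlhe41 and Ciart are higher in all TGF-β and Both libraries than in any Stem library, and Rora (4441 in Stem, 2438 in TGF-β) and Nfil3 are lower.

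With PFI-3 added, Bhlhe41 and Hlf gave results that depended on single libraries. Bhlhe41 fell by 0.23 from TGF-β to Both (adjusted p = 0.0194), a call lost without TGF-β replicate 1 (0.0859), TGF-β replicate 3 (0.0771), Both replicate 2 (0.0605) or Both replicate 3 (0.0767). Hlf had 37 counts over the Both libraries against 7 over TGF-β, a scaled ratio of 4.76 (95% counting interval 2.09 to 12.6), with an adjusted p of 0.155 in edgeR's test that ran from 0.00176 to 0.376 over the alternatives, and without Stem replicate 1 or Stem replicate 2 it was 0.0315 or 0.0260.

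From Stem to TGF-β, 75.0% of all tested genes had an adjusted p below 0.05 and 25.1% passed the full threshold. The counts of the 3 lists below stand beside these shares. None of the genes that set the turnover of PER and CRY proteins passed the full threshold. Of 8 kinases and F-box proteins, 2 rose from Stem to TGF-β (Csnk1a1 by 0.37 and Gsk3b by 0.31), 5 fell, among them Fbxl21, which encodes an F-box protein that binds CRY, by 0.75, and Csnk1e did not pass (0.02, adjusted p = 0.782). From TGF-β to Both 0 had an adjusted p below 0.05 and 3 an unadjusted p below 0.05 in edgeR's test, which 24.1% of all genes had. Of these 3, Csnk1a1 (−0.17, adjusted p = 0.0822) had an adjusted p below 0.05 in 5 of 16 alternatives, with a range of 0.00683 to 0.291, among them those without Stem replicate 2 (0.0389) and without Both replicate 2 (0.0435). Of 6 textbook clock-controlled genes, 3 rose and 2 fell, 0 at the full threshold, and the call of Usp2 among the risen (0.25, adjusted p = 0.0492) was lost in 12 of 16 alternatives, with adjusted p from 0.0221 to 0.292; the left-out libraries that ended it were Stem replicates 2 and 3, TGF-β replicates 1 and 3 and Both replicates 1 and 3. In this list 0 passed the adjusted p with PFI-3, where 1, Nampt, had an unadjusted p below 0.05 and an adjusted p of 0.0477 without Stem replicate 2. Among 5 genes of glucocorticoid and cAMP input to the clock, the kinase gene Sik1 fell by 1.30 (880 to 358 normalized counts, adjusted p = 4.65e-08), Fkbp5 and Tsc22d3 rose by 0.92 and 0.69, and Crem and Klf9 fell by 0.76 and 0.43. Tsc22d3, which encodes the glucocorticoid-induced protein GILZ, had 1326, 1373 and 1380 in TGF-β and 1061, 1048 and 1037 in Both. It fell by 0.37 with PFI-3 (adjusted p = 0.00141), in all 16 alternatives. Of the 5 input genes, 3 had an unadjusted p below 0.05 in edgeR's test from TGF-β to Both. Fkbp5 had −0.28 (adjusted p = 0.0912), with an adjusted p below 0.05 in 5 of 16 alternatives and a range of 8.94e-04 to 0.272. Among these 5 were those without Stem replicate 1 (0.0266) and without Stem replicate 2 (0.00702). Crem, a cAMP-responsive factor, rose by 0.46 with PFI-3 (adjusted p = 0.0128), but its adjusted p was between 0.0515 and 0.0614 without TGF-β replicate 2 or 3, or Both replicate 1 or 3.

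Over these 5 lists together, 29 genes were tested. From Stem to TGF-β, 12 rose and 14 fell, 6 of the 29 past the full threshold (25.1% of all genes), with a median log2 fold change of −0.10. From TGF-β to Both, 2 rose (Npas2, Crem; 3.54% of all genes rose), 2 fell (Bhlhe41, Tsc22d3; 5.38% of all genes fell) and none passed the full threshold, with a median of −0.04. These counts stand beside the 75.0% and 8.92% of all tested genes with an adjusted p below 0.05 in the 2 comparisons, which share the TGF-β libraries. With PFI-3, 11 of the 29 had an unadjusted p below 0.05 in edgeR's test, against 24.1% of all genes. The TGF-β and Both libraries did not overlap for 16 of the 29, against 32.7% of all genes. The lists were not tested as sets.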

How the data were processed

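RNA was extracted from 9 cultures of AdvSca1-SM cells and sequenced as ribosome-depleted, paired-end libraries. The authors deposited 1 table of raw read counts per gene. Per the labels, reads were processed on GRCm39 with HISAT2 2.2.1, SAMtools 1.13 and HTSeq 0.11.3, whereas the study's methods name another aligner, STAR; which of them made the table, and the strand setting, are not given in the sources used here. Symbols were matched to 52083 of 55416 identifiers.

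Counts were tested in R 4.3.3 with edgeR 4.0.16 (TMM scaling, filterByExpr, quasi-likelihood F test, all 9 libraries in 1 fit, Benjamini-Hochberg adjustment over 14879 genes). Calls required an adjusted p below 0.05 and a fold change of at least 2. DESeq2 1.42.0 served as an alternative, and others changed the scaling, filter, fold minimum, block and libraries. The scripts were tested on simulated data. Normalized counts were scaled to a mean library of 41184338. Depth gave a floor of 3 counts, 2.63 to 3.26 normalized counts, and the biological coefficient of variation was 6.13%. Floors and the exact (Clopper-Pearson) counting intervals given for Hlf cover counting error only. Transcript lengths and gene overlaps came from a GRCm38 annotation and promoters from RefSeq (GRCm38.p6); no coordinate was moved between builds.

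The members and lists were chosen with earlier results of these data known. All members and all activators and ROR factors were to be named, and, of the other lists, genes past the full threshold from Stem to TGF-β, at an adjusted p below 0.05 from TGF-β to Both, or at the limit of detection. Other genes of those lists were named after their values had been seen. Some genes of the lists are not reported here.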

Additional observations from a re-analysis of the deposited data

How the results depend on the processing

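From Stem to TGF-β the number of members past the full threshold was 2 and became 8 with no fold minimum, 1 with a test against the 2-fold minimum (TREAT) and 3 with total counts. From Stem to Both it was 2, and 9 or 1 under the first 2 of these settings. From TGF-β to Both it was 0 in all alternatives. Of the clock pathway lists, 6 genes passed from Stem to TGF-β (26 with no fold minimum). From TGF-β to Both the count was 0, and 4 with no fold minimum. It was 1, Hlf, with DESeq2, with no filter and with only the 6 libraries compared, and 0 to 1 when 1 library was left out. Total counts turned Tef from 0.00 to −0.12 from Stem to TGF-β. The number of genes past the full threshold from TGF-β to Both was 94, and 163 with no filter. The span of member levels in Stem was 23.7 and came to 77.9 with the median transcript length, which also put Tef above Bhlhe40 in TGF-β and Both. With CANNTG in place of CACGTG, 6 of 8 members held an E-box, and it was in 8 of the 10 member windows, against 72.3% of all windows. The causes were not tested. Depth limits Hlf most among the clock genes named, and Rorb to a lesser degree.

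No label says what a replicate number marks, and not every pair of same-numbered libraries deviated together: their deviations correlated from −0.05 to 0.20 (9 pairs), and those of others from −0.18 to 0.17 (18 pairs). The 3 pairs numbered 2 had 0.14 to 0.20, and number 2 with any other number had −0.18 to −0.02. Deviations were taken from the group mean and sum to 0 within a group, which ties the second range to the first. Number 2 was singled out after these values had been seen, and Stem replicate 1 with Both replicate 3 also had 0.17. At most, the first range is a hint from the data and not from the design. With the replicate block, genes with an adjusted p below 0.05 from TGF-β to Both went from 1327 to 2309 and those past the full threshold from 94 to 120. Of the lists 1 gene, Hlf, passed the full threshold there, and 1 member, Dbp, had an adjusted p below 0.05 (0.0338). The block moved Per3 from Stem to Both to 0.0275.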
